A study of Rattus norvegicus with 57 samples.

Results

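Described here is how the effect of 80 mg/kg methapyrilene on gene expression in rat liver differed between day 8 and day 4 of dosing, across 10725 genes. For each gene the log2 difference of 80 mg/kg from control on day 4 was subtracted from the same difference on day 8, and the result is called the shift of the gene. The shift rests on 19 of 57 arrays: 5 of 80 mg/kg on day 8, 5 of control on day 8, 4 of 80 mg/kg on day 4 (replicates 2 to 5) and 5 of control on day 4. All animals were male Han Wistar [Crl:WI(Han)] rats of 8 to 10 weeks, kept in single cages, and each array holds the liver RNA labelled as 1 biological replicate. Treated rats were given methapyrilene by mouth each day at 80 mg/kg body weight in carboxymethylcellulose, and control rats were given this vehicle. RNA was taken from a small piece of homogenised liver and hybridised to Affymetrix Rat Genome 230 2.0 arrays. Other rats given 30 mg/kg (5 arrays on each of days 4 and 8), and rats of day 15 (5 arrays each of 80 mg/kg and control), are set beside the shift.

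Methapyrilene is an antihistamine that injures hepatocytes of the rat, mainly those near the portal tracts. Hepatocytes make most plasma proteins, clotting factors and complement, and carry out urea formation, amino acid breakdown and drug metabolism. In adult male rats, pulsed growth hormone keeps a set of male-typical liver genes on and female-typical genes low. Liver also holds macrophages, stellate cells that lay down matrix and bile duct cells, and a homogenate mixes them all, so that fewer cells of a type and less RNA per cell cannot be told apart.

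Values were MAS5 signals, which had the same trimmed mean on every array, and the number of arrays limited the precision. Log2 signals of any 2 of the 57 arrays correlated at 0.882 to 0.985. Of 6 hepatocyte markers 5 were on the array, and their summed signal was 23530.4 to 27123 in 80 mg/kg and 26825 to 34798 in control on day 8, and 31396 to 33271 in 80 mg/kg and 25487 to 33120.4 in control on day 4. The median log2 signal of an array averaged 4.22 ± 0.0599 in 80 mg/kg and 4.00 ± 0.0247 in control on day 8 (SD, n = 5 each, two-sided exact permutation test p = 0.00794, the smallest these group sizes allow). On day 4 it averaged 4.17 ± 0.0673 in 80 mg/kg (n = 4) and 4.03 ± 0.10 in control (SD, n = 5, two-sided exact permutation test p = 0.0714). The log2 ratio of the 3' to the 5' probe set of actin, a measure of RNA integrity and labelling, averaged 2.13 ± 0.0752 in 80 mg/kg and 2.34 ± 0.15 in control on day 8 (SD, n = 5 each, two-sided exact permutation test p = 0.0397). On day 4 this ratio averaged 2.33 ± 0.232 in 80 mg/kg (n = 4) and 2.15 ± 0.144 in control (SD, n = 5, two-sided exact permutation test p = 0.198). The same ratio of Gapdh averaged 0.525 ± 0.0466 in 80 mg/kg and 0.498 ± 0.108 in control on day 8 (SD, n = 5 each, two-sided exact permutation test p = 0.643). On day 4 it averaged 0.606 ± 0.0351 in 80 mg/kg (n = 4) and 0.425 ± 0.161 in control (SD, n = 5, two-sided exact permutation test p = 0.0476). Counts with the actin ratio as a covariate are given beside the main counts, and the Gapdh ratio was not used as one.

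Between day 4 and day 8 the effect of 80 mg/kg shifted up in 338 genes (3.15% of those tested) and down in 379 (3.53%), at a Benjamini-Hochberg adjusted p under 0.05 in limma, which gives all adjusted p-values and standard errors below. Another 10008 genes did not pass. The median shift of all genes was 0.06 on the log2 scale, and the median standard error was 0.192. The shift was over 2-fold for 63 of the genes called up and 35 of those called down. In the 80 mg/kg rats alone 1510 genes (14.1%) differed between the days, and in control rats alone 363 (3.38%). Treated liver moved further than control liver in 261 of the 338 genes called up and 327 of the 379 called down. The counts were 141 up and 174 down without 80 mg/kg day 4 replicate 2, the lowest of any array left out. With all arrays set to a common median they were 90 up and 297 down, and with the actin ratio as a covariate 165 up and 147 down.

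**Figure D1:**
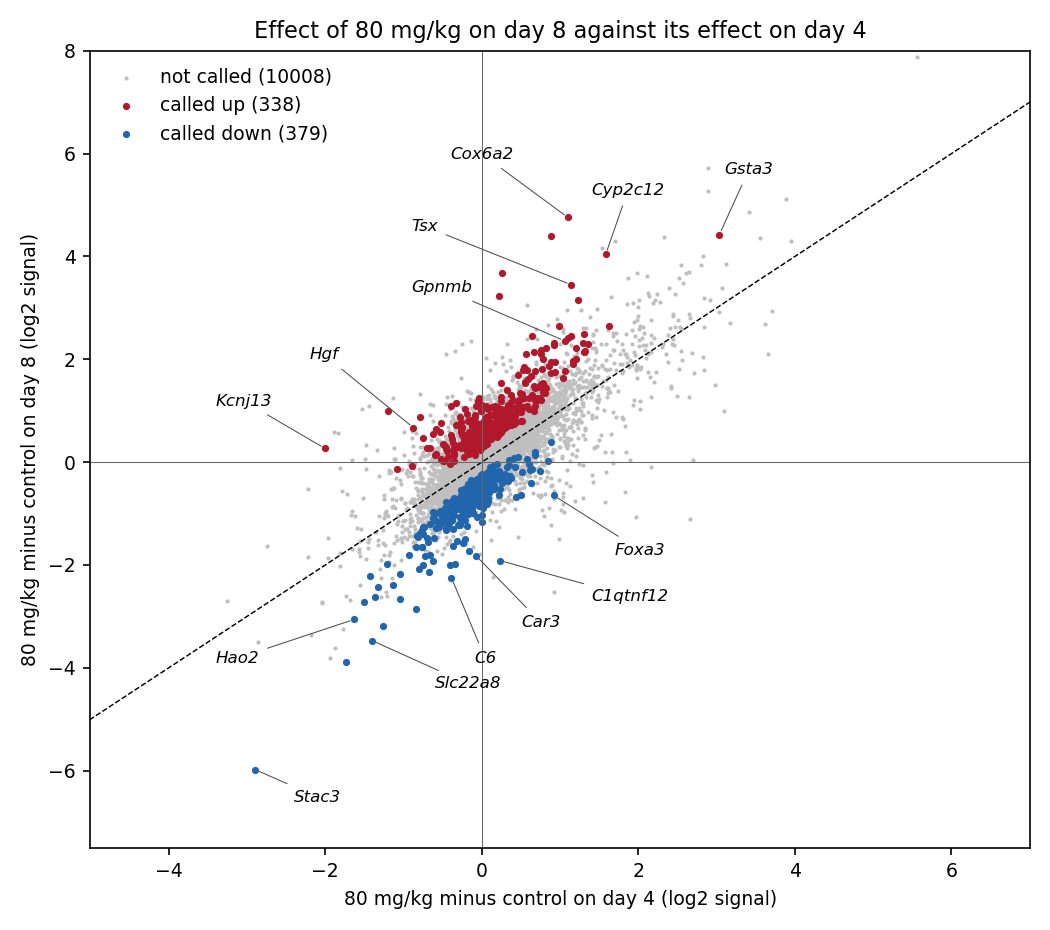
Effect of 80 mg/kg against control (log2) on day 8 (vertical axis) and on day 4 (horizontal axis) for 10725 genes. The coloured points are the 338 genes called up and the 379 called down for the difference between the days; Stac3, at -5.98 on day 8 and -2.89 on day 4, lies far below the line of equal effects.

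Most called genes had an effect of the same sign on both days, but most were not called against control on day 4. Of the 338 genes called up, 230 were above control on both days with the larger effect on day 8. Another 105 were below control on day 4 and above it on day 8, and 3 were below it on both days. The median effect of the genes called up was 0.76 on day 8 and 0.17 on day 4. Of the 379 called down, 255 were below control on both days with the larger effect on day 8. Another 116 were above control on day 4 and below it on day 8, and 8 were above it on both days. The median effect of the genes called down was -0.65 on day 8 and -0.12 on day 4. On day 8, 313 of the genes called up were called above control, where 34.2% of all genes were, and 357 of those called down were below it, where 16.6% were. On day 4 these were 117 above control (all genes 18.3%) and 121 below it (all genes 9.19%). Not called either way on day 4 were 189 of the genes called up and 234 of those called down. Both days are part of the shift, so these counts describe its form.

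The shift itself is not computed from the arrays of day 15, but these were in the fit that set the variance behind the calls. With only the 19 arrays in the fit, 194 genes were called up and 266 down. Of the genes called up, 265 were above control on day 15 (all genes 38.8%) and 7 below it, with a median effect of 0.74. Of the genes called down, 340 were below control on day 15 (all genes 20.5%) and 6 above it, with a median effect of -0.75.

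Stac3, an adaptor protein known from excitation-contraction coupling in muscle, had the largest fall of the called genes. Its signals were 22.2, 49.8, 21.8, 12.7 and 245 in 80 mg/kg and 2602, 2621, 2061, 2321 and 2310.3 in control on day 8. They were 513, 348, 425 and 132 in 80 mg/kg and 2141, 2434, 2187, 2612 and 2421 in control on day 4. Every treated array lay under every control on both days, and the highest of the treated day 8 arrays, replicate 5, lay within the treated range of day 4. The effect was -5.98 on day 8 and -2.89 on day 4, a shift of -3.09 ± 0.60 (adjusted p = 0.00234), and on day 15 it was -7.20.

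Slc22a8, the organic anion transporter OAT3, was under control on both days. Its signals were 119.9, 118, 88.1, 47.6 and 166 in 80 mg/kg and 1083, 1098, 894, 1007 and 1530.1 in control on day 8, and 481, 378, 475 and 398 in 80 mg/kg and 777, 1167, 1253, 1239 and 1359.8 in control on day 4. Treated arrays of day 8 lay under those of day 4. The shift was -2.07 ± 0.39 (adjusted p = 0.00218). Ust5r, a related transporter, shifted by -1.61 ± 0.35.

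Car3, carbonic anhydrase 3, was separate from control on day 8 and not on day 4. Its signals were 1951, 3511, 1673, 1194 and 4028 in 80 mg/kg and 7239, 7051, 8575, 9045 and 7891 in control on day 8, and 7327, 6032, 7058 and 7105 in 80 mg/kg and 5914, 6477, 8179, 7418 and 8306 in control on day 4. The groups overlapped on day 4 with an effect of -0.07 and stood apart on day 8 with an effect of -1.83, a shift of -1.76 ± 0.33 (adjusted p = 0.00218). C6, a component of the complement pore, had the same form. Its signals were 129.7, 176, 186, 206 and 371 in 80 mg/kg and 966, 892, 984, 1021 and 911 in control on day 8, and 455, 938, 397 and 405 in 80 mg/kg and 489, 955, 805, 544 and 658 in control on day 4. Treated day 8 arrays lay under all others, and the shift was -1.86 ± 0.43 (adjusted p = 0.00693).

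Further large falls were those of Dhrs7l1, a short-chain dehydrogenase (-2.02 ± 0.49), Sez6 (-1.92 ± 0.40), and Nat8, an acetyltransferase of the mercapturic acid pathway (-1.45 ± 0.33). C1qtnf12, a secreted relative of adiponectin, shifted by -2.15 ± 0.48 at low signals of 3.32 to 18.3 in 80 mg/kg and 18.1 to 27.6 in control on day 8, which overlapped. These, with Stac3, Slc22a8, Ust5r, Car3 and C6, were called under every other setting that tested them and with each array left out. Obp3, a lipocalin (-1.64 ± 0.50), was lost in 10 of 19 fits that left out 1 array, with adjusted p up to 0.101. Plekhb1, a pleckstrin homology protein (-1.60 ± 0.44), was lost without 80 mg/kg day 4 replicate 2 and without 80 mg/kg day 8 replicate 3, with adjusted p up to 0.0573.

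**Figure D2:**
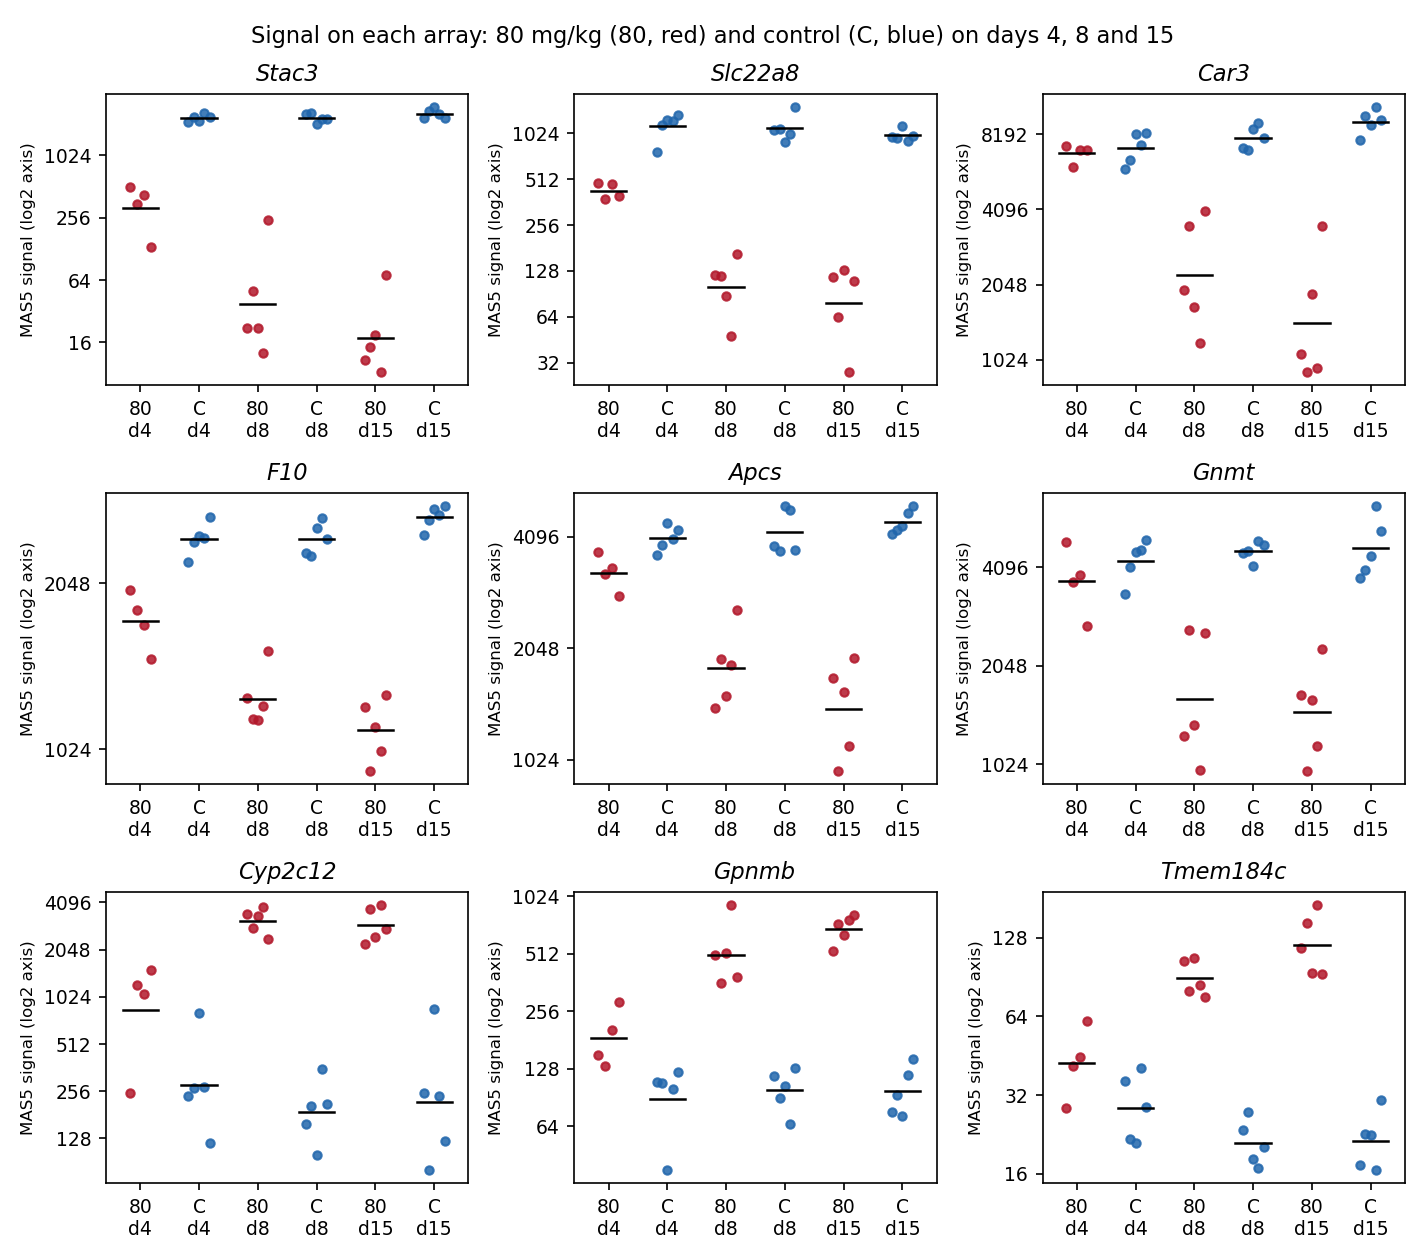
MAS5 signal on a log2 axis of 9 genes on each array of 80 mg/kg and control on days 4, 8 and 15, with black lines at the geometric means. Stac3 and Slc22a8 were under control on day 4 and lower on day 8, Car3, Apcs and Gnmt separated from control on day 8, and Cyp2c12, Gpnmb and Tmem184c were highest in treated liver.

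Cyp2c12, the steroid hydroxylase typical of adult female rats, shifted up. Its signals were 3464, 2830, 3353, 3834 and 2409 in 80 mg/kg and 157, 207, 99.6, 357 and 212 in control on day 8, and 249, 1219, 1070.2 and 1521 in 80 mg/kg and 239, 269, 811, 274 and 119.6 in control on day 4. All treated day 8 arrays lay above the other 3 groups, while on day 4 treated replicate 2 lay among the controls. The effect was 4.05 on day 8 and 1.58 on day 4, a shift of 2.46 ± 0.75 (adjusted p = 0.0371). The call was lost in 10 of 19 fits that left out 1 array, with adjusted p up to 0.145 without 80 mg/kg day 4 replicate 2.

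Tmem184c, a membrane protein, had a tighter rise. Its signals were 105, 80.4, 108, 84.4 and 76.3 in 80 mg/kg and 23.5, 27.6, 18.1, 16.8 and 20.3 in control on day 8, and 28.5, 41.5, 45 and 61.3 in 80 mg/kg and 36.2, 21.8, 20.9, 40.6 and 28.8 in control on day 4. The groups overlapped on day 4 and were separate on day 8, and the shift was 1.53 ± 0.29 (adjusted p = 0.00218). Tsx, an X-linked gene named for its expression in testis, read 262, 56.7, 116, 203 and 69.4 in 80 mg/kg and 12.8, 7.52, 9.95, 8.8 and 18.4 in control on day 8, and 17.3, 20.1, 21.8 and 18.9 in 80 mg/kg and 13.2, 10.2, 8.9, 7.66 and 5.87 in control on day 4. Treated arrays were above control on both days and farther above on day 8, a shift of 2.31 ± 0.54 (adjusted p = 0.00723). Tmem184c and Tsx, with the lysoplasmalogenase Tmem86a (1.48 ± 0.32), were called under every other setting that tested them and with each array left out.

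Mmp12, the elastase of macrophages, read 99.8, 46.6, 67.3, 199 and 82.8 in 80 mg/kg and 4.98, 10.3, 8.37, 11.3 and 19.1 in control on day 8, and 13.6, 17.8, 21.5 and 46.8 in 80 mg/kg and 10.1, 13.7, 4.21, 13.5 and 9.89 in control on day 4. The highest treated array of day 4 lay at the lowest of day 8, and the shift was 1.93 ± 0.56 (adjusted p = 0.0284, up to 0.0871 with 1 array left out). Snx10, a sorting nexin of endosomes, shifted by 1.65 ± 0.43 and was lost without 80 mg/kg day 4 replicate 2 (adjusted p = 0.054). Its call was also lost with the mean of its probe sets and with the actin ratio as a covariate (adjusted p up to 0.167 in limma). Cox6a2, the muscle form of a cytochrome c oxidase subunit, read 32.2 to 61.8 in 80 mg/kg and 0.50 to 4.41 in control on day 8, and 5.41 to 12.1 in 80 mg/kg and 3.25 to 4.92 in control on day 4. Its shift of 3.66 ± 0.99 rests partly on control signals near the floor of the array. This holds too for Fam25a (3.43 ± 1.08), at 7.76 to 208 in 80 mg/kg and 1.58 to 6.49 in control on day 8, and for Inhbb, the activin beta B chain (3.52 ± 1.11), at 8.25 to 19.5 in 80 mg/kg and 0.38 to 0.81 in control on day 8. With 1 array left out, Fam25a was lost in 10 and Inhbb in 16 of 19 fits.

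Genes for proteins that hepatocytes secrete shifted down. Of 18 coagulation genes measured, 14 shifted down (all genes 3.53%) and 0 up, with a median of -0.47. F10, the protease that activates prothrombin, read 1270, 1161, 1159, 1228 and 1540.4 in 80 mg/kg and 2324, 2292, 2574, 2686 and 2460.4 in control on day 8, and 1987, 1834, 1721 and 1490.2 in 80 mg/kg and 2241, 2427, 2497, 2472 and 2699.9 in control on day 4. Treated arrays lay under control on both days, and the shift was -0.47 ± 0.11 (adjusted p = 0.00922). Heparin cofactor II, Serpind1, shifted by -0.60 ± 0.15 and factor IX, F9, by -0.58 ± 0.15. Of 27 plasma protein genes 10 shifted down and 0 up (median -0.47). These include the fetuin Fetub (-0.81 ± 0.17) and the apolipoproteins Apoa2 (-0.66 ± 0.15) and Apoc1 (-0.58 ± 0.16).

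Of 18 complement genes 7 shifted down and 0 up (median -0.49), led by C8g of the terminal pore (-0.74 ± 0.14), the protease Masp2 (-0.55 ± 0.12) and the inhibitor Serping1 (-0.51 ± 0.11). The call of Masp2 was lost with the mean of its probe sets (adjusted p = 0.316 in limma). C8g read 1731, 1583, 1677, 1978 and 2099.6 in 80 mg/kg and 3604, 3777, 4211, 4342 and 3854 in control on day 8, and 3300.3, 3225, 3046 and 2612 in 80 mg/kg and 3753, 3754, 4179, 4012 and 4185 in control on day 4, and its treated day 8 arrays lay under all others. Of 22 acute phase genes 7 shifted down and 0 up (median -0.43). Apcs, serum amyloid P component, read 1412, 1917, 1525, 1844 and 2599 in 80 mg/kg and 3882, 3759, 4966, 4856 and 3783 in control on day 8, and 3721, 3255, 3385 and 2828 in 80 mg/kg and 3652, 3905, 4469, 4031 and 4278 in control on day 4. Its groups overlapped on day 4 and stood apart on day 8, and the shift was -0.91 ± 0.19 (adjusted p = 0.00336). Serpina3n, a serine protease inhibitor, shifted by -0.93 ± 0.25 and the fibrinogen chain Fgg by -0.54 ± 0.16.

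The size of these list shifts depended on how arrays were scaled. Of 10 equal groups of genes ordered by mean signal, the brightest, of 1073 genes, had a median shift of -0.20. It held 241 of the 379 genes called down, where 3.53% of all genes were. Quantile normalization, which gives all arrays 1 distribution, brought the median of this group to -0.04. No list was compared with other genes of like signal. Under quantile normalization the coagulation median was -0.15 with 3 called down, complement -0.24 with 4, plasma protein -0.09 with 1 up and 1 down, and acute phase -0.06 with 1 up and 1 down. With the actin ratio as a covariate these were -0.39 with 1, -0.37 with 4, -0.33 with 2, and -0.31 with 1, in the same order. F10, C8g, Serping1, Apcs and Fetub were called under every other setting that tested them and with each array left out. Quantile normalization lost the calls of Apoa2, Apoc1, Serpind1, Serpina3n and Fgg. The actin ratio as a covariate lost those of Apoc1, Serpind1, F9, Serpina3n and Fgg. In limma the adjusted p rose to 0.204 for Apoa2, 0.397 for Apoc1 and 0.0654 for Serpind1. It rose to 0.0809 for F9, 0.0811 for Serpina3n and 0.571 for Fgg, whose shift was as small as -0.05. Without 80 mg/kg day 4 replicate 2 the coagulation list had 5 calls and the acute phase list 1. Complement had 4 without control day 8 replicate 4, and plasma proteins 4 without control day 4 replicate 1.

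**Figure D3:**
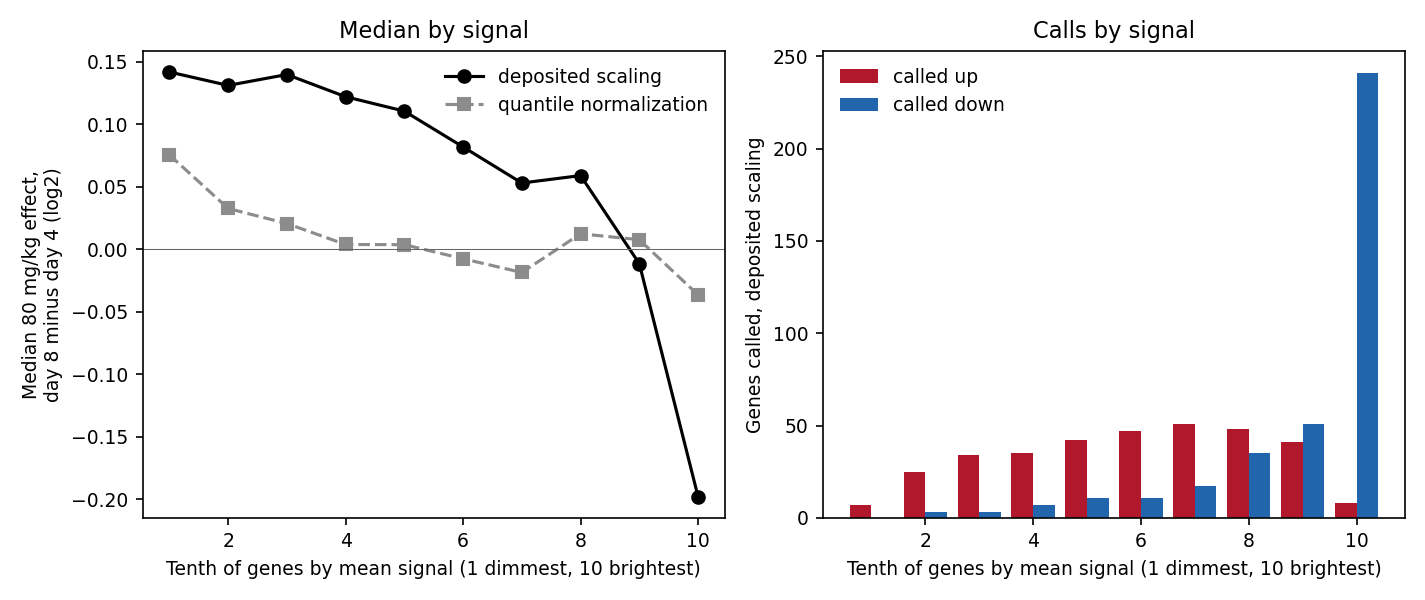
Median shift (log2) and numbers of genes called, in 10 equal groups of genes ordered by mean signal. The brightest group had a median of -0.20 as deposited and -0.04 after quantile normalization, with 241 genes called down and 8 up.

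Promoters of 3 secreted proteins, of Stac3 and of the male-specific Cyp2c11 are shown as examples. These genes shifted down and come from the coagulation, acute phase and male-typical lists. Each promoter runs from 250 bases before to 50 after the start in RefSeq, assembly GRCr8, 5' to 3' along the gene. Capitals mark CCAAT, the box bound by NF-Y, on either strand, and in F9 also TTCNNNGAA, a form bound by STAT factors. Every promoter shown holds CCAAT, against 47.7% of those of genes called down and 38.1% of all. The examples therefore do not represent the genes called down.
F10, chr16:83190231-83190530, minus strand: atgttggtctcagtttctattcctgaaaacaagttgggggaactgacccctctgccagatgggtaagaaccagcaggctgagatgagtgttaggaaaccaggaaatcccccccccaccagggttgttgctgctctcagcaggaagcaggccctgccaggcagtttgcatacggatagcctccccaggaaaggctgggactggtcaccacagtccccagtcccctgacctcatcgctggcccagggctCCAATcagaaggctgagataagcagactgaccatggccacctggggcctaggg
F9, chrX:143388392-143388691, plus strand: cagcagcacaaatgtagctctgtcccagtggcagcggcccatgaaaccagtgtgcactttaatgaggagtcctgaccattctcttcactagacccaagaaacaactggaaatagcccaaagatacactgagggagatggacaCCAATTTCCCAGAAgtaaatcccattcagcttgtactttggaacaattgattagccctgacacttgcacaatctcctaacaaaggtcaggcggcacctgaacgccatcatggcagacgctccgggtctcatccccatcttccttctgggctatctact
Apcs, chr13:87906459-87906758, minus strand: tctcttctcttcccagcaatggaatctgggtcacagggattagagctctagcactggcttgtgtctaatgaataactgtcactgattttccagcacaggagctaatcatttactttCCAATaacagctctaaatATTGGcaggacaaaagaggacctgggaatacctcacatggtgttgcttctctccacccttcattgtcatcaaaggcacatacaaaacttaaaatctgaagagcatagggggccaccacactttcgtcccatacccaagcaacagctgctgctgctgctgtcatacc
Stac3, chr7:65228225-65228524, plus strand: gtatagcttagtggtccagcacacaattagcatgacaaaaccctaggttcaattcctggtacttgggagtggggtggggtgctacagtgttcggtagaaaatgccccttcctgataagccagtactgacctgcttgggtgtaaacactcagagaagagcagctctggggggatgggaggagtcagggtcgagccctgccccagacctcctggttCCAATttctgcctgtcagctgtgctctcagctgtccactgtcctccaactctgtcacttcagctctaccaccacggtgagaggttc
Cyp2c11, chr1:246174966-246175265, plus strand: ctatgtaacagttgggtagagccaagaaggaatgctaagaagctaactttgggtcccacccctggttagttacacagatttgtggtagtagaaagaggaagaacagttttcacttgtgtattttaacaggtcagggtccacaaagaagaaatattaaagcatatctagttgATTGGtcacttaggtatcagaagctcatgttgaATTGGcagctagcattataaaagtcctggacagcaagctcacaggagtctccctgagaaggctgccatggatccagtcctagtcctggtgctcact

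A promoter was found for 8957 of 10725 genes, for 283 of those called up and 325 of those called down. CCAAT stood in 33.9% of the promoters of genes called up, 47.7% of those called down and 38.1% of all. TTCNNNGAA stood in 5.3% of those called up, 8.62% of those called down and 6.83% of all. For GGGCGG, the letters bound by Sp1, these were 63.6%, 52.3% and 62.2%. The other motifs searched are given in that order, up, down and all. TTTGAA, the T form of the cell cycle homology region, stood in 9.54%, 17.2% and 11.6%, its C form TTCGAA in 0.707%, 0.923% and 2.07%, the cAMP response element TGACGTCA in 3.18%, 0.615% and 3.16%, and the E-box TCACGTG in 7.07%, 3.38% and 5.66%. The antioxidant response core TGACNNNGC stood in 14.5%, 11.1% and 14.8%, the CEBP-ATF4 element TGATGCAA in 1.06%, 0.308% and 0.636%, the AP-1 letters TGAGTCA in 3.89%, 4.31% and 3.42%, and the HNF4A letters CAAAGTCCA in 0.0%, 0.615% and 0.346%. Both strands were searched, the differences were not tested, and a match is a run of letters rather than a site.

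Male-typical genes shifted down. Of 16 measured, 11 shifted down (all genes 3.53%) and 0 up (median -0.69), among them Stac3, Ust5r and Obp3. Cyp2c11, the main male-specific P450 of the rat, read 1896, 2614, 1731, 1548 and 2875 in 80 mg/kg and 5819, 5788, 6516, 6665 and 6131 in control on day 8, and 4912, 4861, 5542 and 4405 in 80 mg/kg and 4797, 5556, 6407, 6221 and 6212 in control on day 4. Its groups overlapped on day 4 and stood apart on day 8, and the shift was -1.33 ± 0.32 (adjusted p = 0.00899). Hao2, a peroxisomal hydroxyacid oxidase, shifted by -1.43 ± 0.38. Of 12 female-typical genes, Cyp2c12 alone shifted up and 0 down (median 0.10), where 3.15% of all genes shifted up. The male-typical median was -0.63 with 5 called down under quantile normalization and -0.73 with 2 with the actin ratio as a covariate. Without control day 4 replicate 1, 4 were called. Ghr, the growth hormone receptor, shifted by -0.42 ± 0.12, with adjusted p up to 0.0677 when 80 mg/kg day 4 replicate 2 or 80 mg/kg day 8 replicate 3 was left out. The Ghr call was also lost in 5 of 11 other settings. These were quantile normalization, the mean of probe sets, only the 19 arrays, a replicate block and the actin ratio as a covariate. Across the settings its shift was as small as -0.17, with adjusted p up to 0.433 in limma.

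Of 26 xenobiotic cytochrome P450 genes 11 shifted down (all genes 3.53%) and 1 up, Cyp2c12 (median -0.47). The falls were led by Cyp2d3 (-0.76 ± 0.16), Cyp2c11 and Cyp2d2 (-0.55 ± 0.14), and 3 genes were called down without control day 4 replicate 1. Of 26 genes of bile acid synthesis and transport 5 shifted down and 1 up (median -0.27). In the brightest of the 10 groups by mean signal, 241 of 1073 genes were called down. Baat, which joins bile acids to amino acids, shifted by -0.60 ± 0.14, and Slc10a1, the bile acid uptake transporter NTCP, by -0.86 ± 0.23. The rise was that of the efflux pump Abcc4, with signals of 141, 148, 171, 98 and 88 in 80 mg/kg and 40.8, 31.4, 25.2, 28.8 and 39.8 in control on day 8, and 38.6, 60.9, 62 and 86 in 80 mg/kg and 37.4, 30.4, 39.6, 25.9 and 25.4 in control on day 4. Treated day 8 arrays lay above all others, and the shift was 1.01 ± 0.28 (adjusted p = 0.0243, up to 0.099 with 1 array left out). Bile acid calls numbered 1 down without 80 mg/kg day 4 replicate 2. Under quantile normalization the bile acid list had 2 up and 2 down, at a common median 0 up and 3 down, and with the actin ratio as a covariate 0 up and 1 down. For the P450 list these were 1 up and 4 down, 0 up and 6 down, and 1 up and 1 down, in the same order.

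Of 53 genes of the urea cycle and amino acid breakdown 15 shifted down (all genes 3.53%) and 0 up (median -0.39). In the brightest of the 10 groups by mean signal 241 of 1073 genes were called down. The list was not compared with genes of like signal. Hibadh of valine breakdown (-0.58 ± 0.13), Haao of tryptophan breakdown (-0.54 ± 0.13) and the aspartate-glutamate carrier Slc25a13 (-0.50 ± 0.13) led by adjusted p. Hal, which opens histidine breakdown, read 226, 357, 222, 343 and 420 in 80 mg/kg and 1134, 1290.1, 1310.5, 1250.1 and 855 in control on day 8, and 976, 664, 689 and 413 in 80 mg/kg and 1012, 864, 926, 1103 and 1151 in control on day 4. Treated arrays stood apart from control on day 8 and overlapped it on day 4, and the shift was -1.31 ± 0.33 (adjusted p = 0.0145, 0.0544 without 80 mg/kg day 4 replicate 2). Without that array 7 genes of the list were called down, with quantile normalization 7, and with the actin ratio as a covariate 3. In the serine and one-carbon list 4 of 18 shifted down and 1 up (median -0.09).

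Gnmt, the methyltransferase that uses up S-adenosylmethionine in liver, led that list. It read 1247, 2625, 1348, 982 and 2569.6 in 80 mg/kg and 4535, 4589, 4127, 4933 and 4789 in control on day 8, and 4873, 3690.4, 3875 and 2700 in 80 mg/kg and 3380.1, 4103, 4541, 4614 and 4972 in control on day 4. The groups overlapped on day 4 and not on day 8, and the shift was -1.29 ± 0.28 (adjusted p = 0.00498). The creatine enzyme Gamt shifted by -0.39 ± 0.11 and the purine enzyme Atic by 0.51 ± 0.14. Without control day 4 replicate 1 the list had 1 call down, as many as under quantile normalization (1) or with the actin ratio as a covariate (1).

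In mitochondria, 17 of 53 respiratory chain genes shifted down and 1 up, Cox6a2 (median -0.23). Of all genes 3.53% shifted down, and of the brightest of the 10 groups by mean signal 241 of 1073. The falls of the respiratory chain were led by Cox7b of cytochrome c oxidase (-0.50 ± 0.11), Ndufa4 (-0.43 ± 0.09) and Sdhd of succinate dehydrogenase (-0.33 ± 0.07). Cox7b had an effect of -0.51 on day 8 and -0.01 on day 4. Under quantile normalization the median was -0.05 with 2 called down, and the calls of Ndufa4 and Sdhd were lost (adjusted p = 0.123 and 0.271 in limma). Of 38 genes of fatty acid oxidation 8 shifted down and 0 up (median -0.17), led by the electron carrier Etfb (-0.54 ± 0.10), the fatty acid binding protein Fabp1 (-0.67 ± 0.16) and the dehydrogenase Acads (-0.41 ± 0.11). Of 26 mitochondrial chaperones and proteases 1 shifted down, the chaperonin Hspe1 (-0.29 ± 0.08), against 3.53% of all genes. The call of Hspe1 was lost under quantile normalization, at a common median and with the actin ratio as a covariate (adjusted p up to 0.572 in limma). That of Fabp1 was lost under quantile normalization and with the actin ratio (up to 0.271). Acads lost its call with only the 19 arrays and with the actin ratio (up to 0.0764).

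Cholesterol synthesis had 4 of 21 genes shifted down (all genes 3.53%) and 0 up (median -0.45), and here the control moved. The median change between the days was -0.02 in 80 mg/kg and 0.44 in control. The called genes were Nsdhl (-0.43 ± 0.11), Tm7sf2 (-0.85 ± 0.22), mevalonate kinase Mvk (-0.78 ± 0.23) and squalene synthase Fdft1 (-0.64 ± 0.19). Without control day 4 replicate 1 the respiratory chain had 9 calls down, fatty acid oxidation 3 and cholesterol synthesis 2. With the actin ratio as a covariate these numbered 8, 2 and 1, and under quantile normalization fatty acid oxidation had 3 and cholesterol synthesis 3.

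Macrophage genes shifted up. Of 24 measured, 9 shifted up (all genes 3.15%) and 0 down (median 0.55). The rises were led by Laptm5 of lysosomes (0.79 ± 0.22), Gpnmb, the lectin Lgals3 (1.01 ± 0.29) and Cd68. Gpnmb, a glycoprotein of activated macrophages, read 505, 359, 514, 922 and 385 in 80 mg/kg and 117, 89.6, 104, 66.2 and 129 in control on day 8, and 151, 132, 205 and 285 in 80 mg/kg and 109, 108, 37.9, 100 and 123 in control on day 4. Treated arrays were above control on both days, and those of day 8 were above those of day 4, a shift of 1.30 ± 0.37 (adjusted p = 0.0262). Cd68, a lysosomal protein of macrophages, read 250.1, 212, 289, 299.5 and 266 in 80 mg/kg and 175, 142, 183, 114 and 207 in control on day 8, and 212, 157, 208 and 189 in 80 mg/kg and 155, 187, 182, 208 and 219.7 in control on day 4. Its groups overlapped on day 4 and not on day 8, and the shift was 0.69 ± 0.20 (adjusted p = 0.0299).

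The median change of the macrophage list between the days was 0.29 in 80 mg/kg and -0.21 in control. The summed signal of 6 macrophage markers was 2813 to 3645 in 80 mg/kg and 1696 to 2434 in control on day 8, and 2282 to 2805 in 80 mg/kg and 1686 to 2626 in control on day 4. The list had 0 calls in limma at a common median (median 0.46) and 0 in limma with the actin ratio as a covariate (median 0.48), and 6 under quantile normalization (median 0.57). Without control day 8 replicate 4 there was 1. In limma no gene was called among 13 of T and NK lymphocytes, 7 of B and plasma cells, 3 of neutrophils, 4 of mast cells and 18 of endothelium, with medians of 0.47, 0.39, 0.51, 0.45 and 0.11. Their members at an unadjusted p under 0.05 numbered 2, 0, 0, 0 and 0. These lists held 26, 14, 15, 13 and 24 genes in the same order, so many members were not measured. The T cell markers Cd2, Cd3d and Cd3e did not pass the filter on low signals. Nor did the B cell marker Cd79b, the neutrophil markers S100a8 and Cxcr2 and the mast cell marker Tpsab1.

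Of 36 stellate cell and matrix genes 4 shifted up and 0 down (median 0.22): the matrix glycoprotein Sparc (1.11 ± 0.27), the growth factor Hgf (1.55 ± 0.46), the basement membrane collagen Col4a1 (0.53 ± 0.16) and the receptor Pdgfra (0.50 ± 0.16). Without control day 4 replicate 1, 1 was called, and 1 under quantile normalization, at a common median and with the actin ratio as a covariate alike. The call of Sparc was lost with the mean of its probe sets (adjusted p = 0.0975 in limma). The summed signal of 5 stellate cell markers was 1626 to 2237 in 80 mg/kg and 1550.4 to 2164 in control on day 8, and 1488 to 1812 in 80 mg/kg and 1777 to 2155 in control on day 4. Of 18 biliary and progenitor genes the transcription factor Sox4 alone was called up (list median 0.41), where 3.15% of all genes were. Sox4 read 140.2, 159, 187, 135 and 198 in 80 mg/kg and 96.2, 115, 102, 77.6 and 119 in control on day 8, and 72.4, 81.8, 84.4 and 76.8 in 80 mg/kg and 157, 86.7, 74.3, 83.4 and 85.7 in control on day 4. Its groups were separate on day 8 and overlapped on day 4, a shift of 0.93 ± 0.24 (adjusted p = 0.0143). Summed biliary markers were 508 to 636 in 80 mg/kg and 171 to 242 in control on day 8, and 236 to 446 in 80 mg/kg and 128 to 235 in control on day 4.

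Summed red blood cell markers were 885 to 3151 in 80 mg/kg and 3014 to 6655 in control on day 8, and 2916 to 4215 in 80 mg/kg and 3189 to 4581 in control on day 4, and their part in the shifts was not tested. The 4 genes of that list had no call in limma and 1 at an unadjusted p under 0.05 (median -0.47). Of 30 cytoskeletal genes 2 shifted up and 2 down (median 0.24), among them the annexin Anxa5 (0.71 ± 0.19) and the tubulin Tuba4a (-0.90 ± 0.27). Among all genes 3.15% shifted up and 3.53% down.

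The lists of cell division, DNA replication and ribosomal proteins, each with many genes above control on day 4, had no called shift. Of 54 cell division genes none was called in limma, with 2 at an unadjusted p under 0.05 (median 0.22), while 53 were above control on day 8 and 47 on day 4, with median effects of 2.10 and 1.96. The lowest p-values were those of the checkpoint protein Bub3 (0.29 ± 0.11, adjusted p = 0.103) and the kinase subunit Cks2 (0.54 ± 0.21, adjusted p = 0.116). Of 48 DNA replication genes none was called, with 3 at that unadjusted p (median -0.04), and 33 were above control on day 8 and 30 on day 4. Of 32 ribosomal protein genes none was called, with 1 at that unadjusted p (median -0.01), with 31 above control on day 8 and 31 on day 4. Rps29 (-0.32 ± 0.12) and Rpl14 (0.23 ± 0.11) came closest, and quantile normalization called 13 of the list up at a median of 0.23.

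Among 37 Nrf2 target genes 2 shifted up and 1 down (median 0.18): Abcc4, Gsta3 and Gstm1 (-0.36 ± 0.11). Under quantile normalization the Gstm1 shift turned to 0.0656, and its call was lost at a common median, with a replicate block and with the actin ratio as a covariate. Gsta3, a glutathione transferase, read 1445, 1601, 1638, 1278 and 1611 in 80 mg/kg and 75.9, 80.4, 60.7, 59 and 77.6 in control on day 8, and 1263, 1137, 998 and 1265 in 80 mg/kg and 134, 202, 129, 182 and 89.1 in control on day 4. Treated arrays lay far above control on both days. The shift was 1.39 ± 0.41 (adjusted p = 0.0315), and the change between the days was 0.38 in 80 mg/kg and -1.01 in control. Of 40 genes of the ATF4 amino acid response 1 shifted up (median 0.37), the glycyl-tRNA synthetase Gars1 (0.51 ± 0.15). The call of Gars1 was lost at a common median, with the mean of its probe sets and with only the 19 arrays (adjusted p up to 0.138 in limma). Of 30 genes of protein folding in the endoplasmic reticulum 2 shifted down (median -0.14), the oxidase Ero1b (-0.68 ± 0.17) and Sdf2l1 (-0.67 ± 0.19). Of 21 p53 targets 1 shifted down (median 0.08), the xylulose reductase Dcxr (-0.61 ± 0.15). The small counts of these lists stand beside 3.15% of all genes called up and 3.53% called down.

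In limma no gene was called among 22 of fatty acid synthesis (median -0.30, 6 at an unadjusted p under 0.05) and 22 of glucose and glycogen metabolism (median -0.20, 7). Of 35 proteasome genes none was called in limma, with 7 at that unadjusted p (median 0.00), and 11 were above control on day 8 and 7 on day 4. Of 16 pericentral hepatocyte genes 3 shifted down (median -0.18), among them Gstm1, with the turn given above, and ornithine aminotransferase Oat (-0.89 ± 0.28). In that list 0 were called under quantile normalization, 0 at a common median and 0 with the actin ratio as a covariate. Of 26 hepatocyte transcription factors and receptors 3 shifted down (median -0.14): Foxa3, Ghr and Prox1 (-0.53 ± 0.15). The call of Prox1 was lost with the mean of its probe sets and with only the 19 arrays (adjusted p up to 0.418 in limma). Of 23 genes of iron, zinc and copper handling 2 shifted down (median -0.15), where 3.53% of all genes did.

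**Figure D4:**
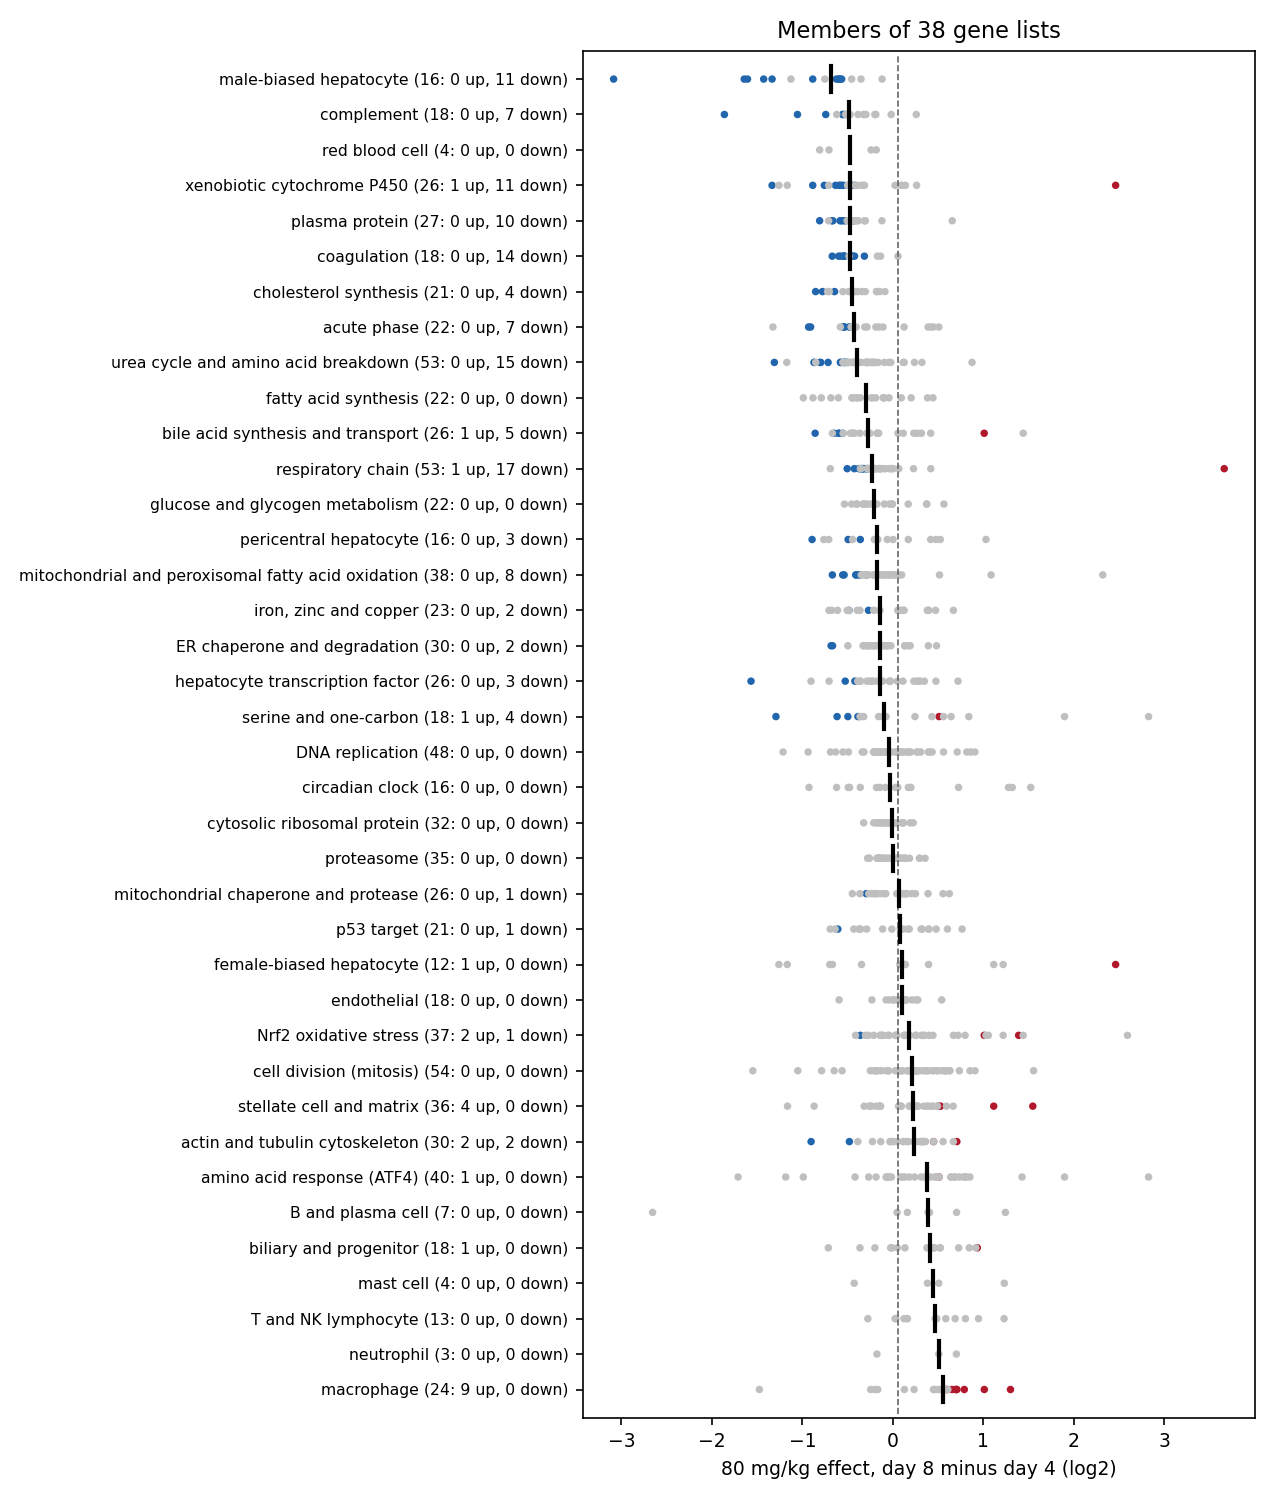
Shift (log2) of each measured member of 38 gene lists, coloured where called, with a black tick at the list's median and a dashed line at the median of all genes, 0.06. Male-typical genes have a median of -0.69 with 11 of 16 called down, and macrophage genes 0.55 with 9 of 24 called up.

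Some genes turned back from a day 4 effect, several of them mainly through a move of the control. Of the genes called down, 24 had been called above control on day 4, and the 6 largest falls among them (ranked with an offset of 3.31 added to the signals) were those of Foxa3, a hepatocyte transcription factor (-1.57 ± 0.41), the RNA-binding protein Cpeb3 (-1.03 ± 0.19), Ankrd9 (-0.91 ± 0.25), the TGF-beta mediator Smad3 (-0.83 ± 0.18), Mvk and Nipal1 (-0.77 ± 0.24). Foxa3 read 73.5, 50.6, 73.6, 98.5 and 94.5 in 80 mg/kg and 103, 96.9, 261, 67.8 and 137 in control on day 8, and 195, 205, 129.9 and 155 in 80 mg/kg and 115, 82.5, 137, 72.8 and 59.2 in control on day 4. Its groups overlapped on both days, with effects of -0.65 on day 8 and 0.92 on day 4. The change between the days was -0.27 in 80 mg/kg and 0.76 in control for Cpeb3, and -0.22 in 80 mg/kg and 0.61 in control for Smad3. Ankrd9 read 36.8 to 38.1 in 80 mg/kg and 16.9 to 28.2 in control on day 4, and 27 to 45.7 and 24.1 to 45.2 on day 8. Mvk read 163 to 229 in 80 mg/kg and 113 to 163 in control on day 4, and 154 to 198 and 164 to 240 on day 8. For Cpeb3, Smad3, Ankrd9 and Mvk the control moved further than treated liver.

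Of the genes called up, 32 had been called below control on day 4, and the 6 largest rises among them by that ranking were in the carboxypeptidase Cpb1 (2.19 ± 0.62), the potassium channel Kcnj13 (2.27 ± 0.60), Hgf, Ube3al1 (1.24 ± 0.31), Pamr1 (1.23 ± 0.28) and Klf10, a transcription factor induced by TGF-beta (1.17 ± 0.32). Kcnj13 read 18.8, 10.9, 15.7, 10 and 9.18 in 80 mg/kg and 11.8, 9.84, 11.8, 17 and 5.04 in control on day 8, and 2.02, 1.15, 5.99 and 10 in 80 mg/kg and 15.2, 11.4, 20.5, 17.7 and 7.9 in control on day 4. These low signals overlapped on both days, and the call was lost without 80 mg/kg day 4 replicate 2 or 3 (adjusted p up to 0.0719). Klf10 read 74.8 to 199 in 80 mg/kg and 116 to 251 in control on day 4, and 133 to 218 and 72.8 to 147 on day 8. Its control fell further than treated liver rose. Pamr1, Foxa3, Cpeb3 and Smad3 were called under every other setting that tested them and with each array left out.

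The called genes that moved most in control were Blnk, an adaptor of B cell receptor signalling (3.02 ± 0.70), Cox6a2, the phospholipase Pla2g12a (1.23 ± 0.40) and the membrane adaptor Baiap2l1 (0.63 ± 0.18). Blnk read 29.2, 22.2, 31.3, 32.9 and 27.4 in 80 mg/kg and 4.36, 1.07, 13.2, 0.74 and 5.43 in control on day 8, and 9.34, 11.3, 6.6 and 17.2 in 80 mg/kg and 16.1, 10.6, 6.89, 7.26 and 6.86 in control on day 4. Its groups overlapped on day 4 and not on day 8. It changed by 1.44 between the days in 80 mg/kg and by -1.58 in control. Baiap2l1 changed by -0.52 in 80 mg/kg and by -1.15 in control, so its shift up was a smaller fall. Of 16 clock genes none was called for a shift in limma and 4 had an unadjusted p under 0.05 (median -0.03). Between the days, 4 of the 16 were called up and 2 down in control, where 3.38% of all genes were called. In 80 mg/kg 2 were called up and 2 down (all genes 14.1%). Hlf shifted by -0.62 ± 0.23 and Nr1d1, a repressor of the clock, by 1.32 ± 0.56 (adjusted p = 0.149 in limma). Nr1d1 read 15.9, 25.6, 26.4, 34.8 and 26.2 in 80 mg/kg and 8.25, 8.71, 16.7, 13 and 20.8 in control on day 8, and 190.1, 165, 46.6 and 159 in 80 mg/kg and 143, 104, 149, 198 and 211 in control on day 4. It was lower on day 8 than on day 4 in both arms, with log2 changes of -2.30 in 80 mg/kg and -3.62 in control, and the hour of sampling was not given in the sources used here.

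**Figure D5:**
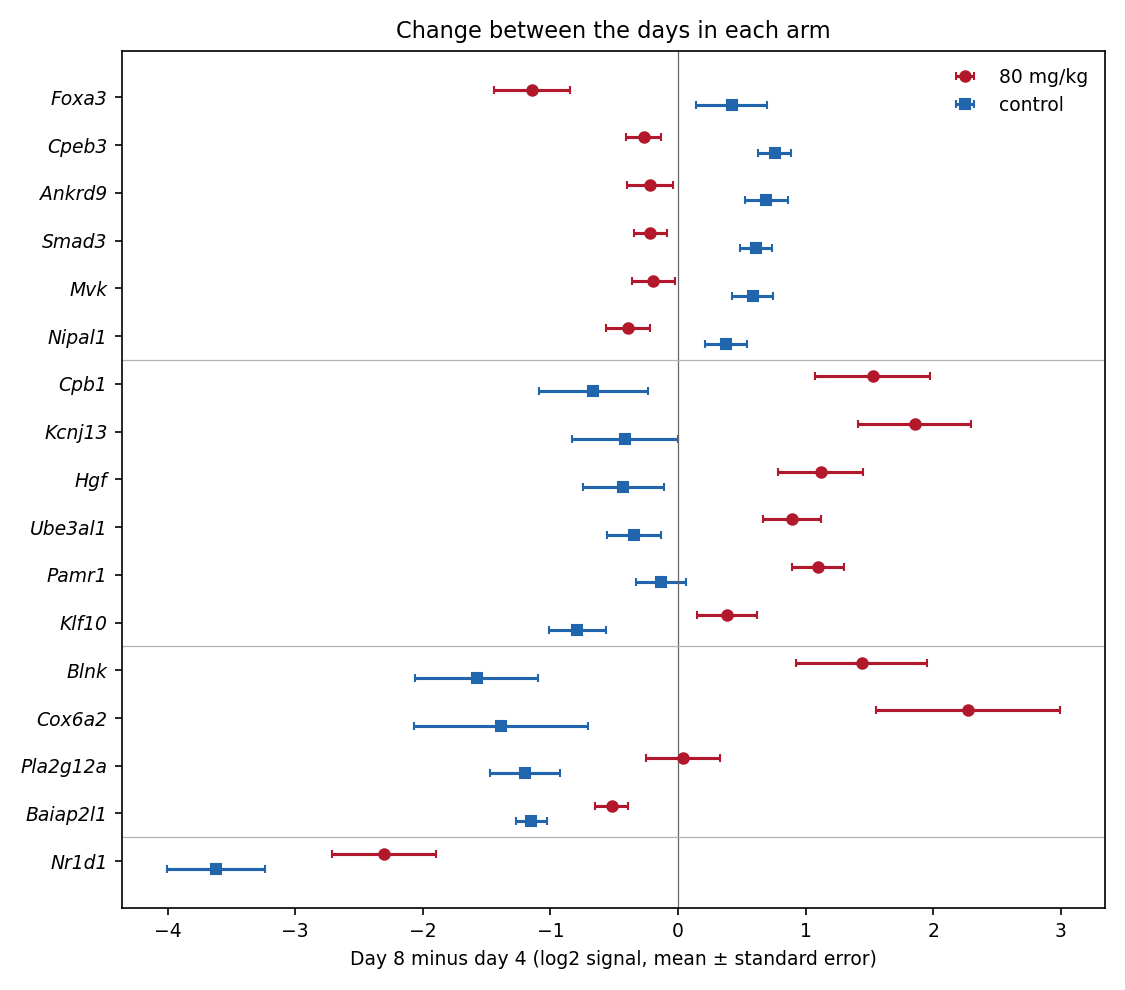
Change of log2 signal from day 4 to day 8 (mean ± standard error) in 80 mg/kg (circles) and control (squares) for 17 genes that turned back, that moved in control, or that belong to the clock. For Cpeb3 the points are at -0.27 in 80 mg/kg and 0.76 in control, and for Nr1d1 at -2.30 and -3.62.

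Some of the calls given above depended on single arrays. With 1 array left out, the adjusted p in limma passed 0.05 for Cox6a2 without control day 8 replicate 4 or 80 mg/kg day 4 replicate 2 (up to 0.0529), Cpb1 without control day 4 replicate 1 or 80 mg/kg day 4 replicate 4 or 80 mg/kg day 8 replicate 3 (up to 0.0725), Ankrd9 without control day 8 replicate 4 or 80 mg/kg day 8 replicate 3 (up to 0.0516), Klf10 without control day 8 replicate 4 or 80 mg/kg day 4 replicate 4 (up to 0.0788), Serpina3n without 80 mg/kg day 4 replicate 2 (up to 0.0514), Slc10a1 without 80 mg/kg day 4 replicate 2 (up to 0.0546), Atic without control day 8 replicate 4 or 80 mg/kg day 4 replicate 2 or 80 mg/kg day 8 replicate 3 (up to 0.0739) and Anxa5 without 80 mg/kg day 4 replicate 2 (up to 0.0627). More arrays decided other calls, and the numbers of fits out of 19 that lost them, with the highest adjusted p in limma, were Mvk (8, up to 0.0739), Nipal1 (10, up to 0.131), Hgf (8, up to 0.0876), Pla2g12a (15, up to 0.112), Baiap2l1 (7, up to 0.0623), Fgg (6, up to 0.068), Gamt (9, up to 0.0742), Fdft1 (8, up to 0.101), Gpnmb (5, up to 0.0721), Lgals3 (6, up to 0.073), Cd68 (6, up to 0.0829), Col4a1 (10, up to 0.11), Pdgfra (12, up to 0.122), Gars1 (4, up to 0.101), Gsta3 (7, up to 0.0665), Gstm1 (7, up to 0.0686), Sdf2l1 (6, up to 0.0715), Prox1 (4, up to 0.0707), Tuba4a (6, up to 0.0818) and Oat (13, up to 0.122).

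At 30 mg/kg the same comparison of day 8 with day 4 called 0 genes in limma, with 695 at an unadjusted p under 0.05, against 2295 at 80 mg/kg. The change between the days differed between 80 and 30 mg/kg in 89 genes upward (0.83%) and 68 downward (0.634%). Both doses share the control arrays, so their shifts are given side by side. Stac3 shifted by -3.09 at 80 mg/kg and had a value of 0.50 at 30 mg/kg. For Slc22a8 these were -2.07 and -0.09, for Car3 -1.76 and -0.29, and for Apcs -0.91 and -0.18. For Gpnmb they were 1.30 and -0.11, and for Smad3 -0.83 and -0.81. The dose difference was called for Stac3, Slc22a8, Car3, Apcs and Gpnmb and not for Smad3.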

How the data were processed

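Liver RNA of 57 rats was measured on Affymetrix Rat Genome 230 2.0 arrays. The deposited values are probe set intensity signals made with MAS5, per the submitters' processing notes, version not given; the trimmed mean was the same on every array. Of 31099 probe sets, 57 controls were left out, and 18677 were above the overall median signal of 17.09 on at least 4 arrays. Of these 14341 had 1 gene symbol in the platform annotation, updated by Entrez number. The probe set with the highest mean stood for a gene, which left 10725 genes; 2759 had several probe sets. Log2 signals with no offset were fitted with limma 3.58.1 in R 4.3.3 (12 group means, all 57 arrays, trended variance), and Benjamini-Hochberg adjustment ran over all genes. On simulated data 48, 76, 96 and 94% of 50 genes changed 1.5, 2, 3 and 4-fold were called, with 17 unchanged genes called. There each gene had 1 mean over all groups apart from these changes, with independent normal noise. Differences between whole arrays were not simulated, so these shares need not hold for the real arrays.

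The genes named were the 12 largest called rises and falls (ranked with an offset of 3.31), 6 each way that turned back, 4 that moved most in control, and per list up to 4 members by adjusted p, up to 2 against the list's direction, or the 2 lowest p where none was called. The comparison, its genes and the 38 lists were chosen with earlier results of these data known. Alternatives were quantile normalization, array weights, an offset, every gene kept or fewer kept, arrays set to 1 median, an untrended variance, all probe sets or their mean per gene, only the 19 arrays, a replicate block, each array left out and, added after seeing the data, the actin ratio as a covariate. Single genes were not followed in the fit of all probe sets. The filter that kept fewer genes dropped some of them, which were then not tested there. Residual correlations of like-numbered samples across groups ran from -0.08 to 0.06. They gave no sign that replicate numbers pair the animals, but with so few arrays per group they cannot exclude it.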

Additional observations from a re-analysis of the deposited data

Results flagged for a closer look

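One array stood apart from the rest of its group in 22 of 384 gene and group combinations examined, by Dixon's test of the gap over the range, which chance passes in about 1 of 20. Signals that stood apart in 80 mg/kg were Dhrs7l1 in 80 mg/kg day 4 replicate 4 (4098, others 1978 to 2140.2), C6 in 80 mg/kg day 4 replicate 3 (938, others 397 to 455), Tmem86a in 80 mg/kg day 4 replicate 2 (99.6, others 81.4 to 83.7), Hao2 in 80 mg/kg day 8 replicate 4 (149.5, others 489.7 to 681), Apoc1 in 80 mg/kg day 4 replicate 4 (7473, others 6848 to 6903), Baat in 80 mg/kg day 8 replicate 5 (3262, others 2557 to 2741), Gamt in 80 mg/kg day 4 replicate 5 (2499, others 2794 to 2846), Tm7sf2 in 80 mg/kg day 4 replicate 5 (889.9, others 1256 to 1347), Nr1d1 in 80 mg/kg day 4 replicate 4 (46.6, others 159 to 190.1), Ghr in 80 mg/kg day 8 replicate 5 (1528, others 1079 to 1185), Tuba4a in 80 mg/kg day 4 replicate 3 (487, others 564 to 571) and Oat in 80 mg/kg day 4 replicate 5 (1139, others 2554 to 2795). Signals that stood apart in control were Slc22a8 in control day 4 replicate 1 (777, others 1167 to 1359.8), Sez6 in control day 4 replicate 5 (359, others 264 to 273), C1qtnf12 in control day 8 replicate 3 (18.1, others 24.5 to 27.6), Plekhb1 in control day 8 replicate 3 (280.2, others 561 to 680), Cpb1 in control day 4 replicate 1 (49.5, others 24.4 to 29.8), Mmp12 in control day 4 replicate 3 (4.21, others 9.89 to 13.7), Pla2g12a in control day 8 replicate 5 (104, others 41.3 to 49.9), Gpnmb in control day 4 replicate 3 (37.9, others 100 to 123), Sox4 in control day 4 replicate 1 (157, others 74.3 to 86.7) and Rpl14 in control day 8 replicate 3 (1437, others 1236 to 1284).

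The effect of 80 mg/kg differed between day 8 and day 4 in 717 genes, and the change between the days differed between 80 and 30 mg/kg in 157 genes, both in limma. Of the genes named in the text, 26 passed the second test. The log2 differences of 80 minus 30 mg/kg were positive in Tsx 2.85, Mmp12 3.21, Kcnj13 2.25, Laptm5 0.80, Gpnmb 1.41, Pdgfra 0.59, Sox4 0.97 and Anxa5 0.89. They were negative in Stac3 -3.59, Slc22a8 -1.97, Dhrs7l1 -1.93, Sez6 -1.57, C6 -1.78, Car3 -1.47, Ust5r -1.46, Nat8 -1.64, Cpeb3 -0.73, Masp2 -0.45, Apcs -0.72, Cyp2d3 -0.67, Hal -1.30, Gnmt -1.02, Etfb -0.42, Sdf2l1 -0.74, Dcxr -0.57 and Oat -1.12.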

How the results depend on the processing

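Upward shifts numbered 338, against 90 at a common median, 194 with only the 19 arrays, 210 with a replicate block and 165 with the actin ratio as a covariate. Downward shifts numbered 379, against 220 with the replicate block and 147 with the actin ratio. Genes changed in control alone numbered 363, against 214 at a common median, 554 with all probe sets and 181 with only the 19 arrays. The causes were not tested. The block could not be fitted to the counts of 1 arm, where it coincides with the day. Gstm1 turned to 0.0656 under quantile normalization. With each array left out, upward shifts ran from 141 to 447, downward from 174 to 529, genes changed in 80 mg/kg alone from 907 (without 80 mg/kg day 4 replicate 2) to 1666, and in control alone from 163 (without control day 8 replicate 1) to 414. Upward shifts were also fewer by over 1.5 times without 80 mg/kg day 4 replicates 3 and 4 (222 and 209), 80 mg/kg day 8 replicate 3 (180), control day 4 replicate 1 (203) and control day 8 replicate 4 (196). Downward shifts were so without 80 mg/kg day 4 replicate 4 (221), 80 mg/kg day 8 replicate 3 (200), control day 4 replicate 1 (225) and control day 8 replicate 4 (211), and control alone without its day 4 replicates 2, 4 and 5 (199, 208 and 187) and day 8 replicate 2 (218). Of 90 named genes that were called, 33 were called under every other setting that tested them, 51 with each array left out and 32 in both. Of simulated 1.5-fold shifts 48% were called at these group sizes, with independent noise and no differences between whole arrays.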
